A study of Mus musculus with 12 samples.

Results

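The Mir106a-363 cluster is a run of 6 miRNA genes on the mouse X chromosome (Mir106a, Mir18b, Mir20b, Mir19b-2, Mir92-2 and Mir363), and it was followed here by name in small RNA-seq of mouse embryonic stem cells (ESCs). Its 6 genes are 6 of the 32101 features, and of the 1577 miRNA genes, in the deposited table. Small RNAs of 20 to 24 nucleotides were sequenced in 12 libraries. The 6 WT libraries come from 3 cultures of ESCs labelled wildtype, numbered 1 to 3, each with a library A and a library B. The library titles of culture 2 lack the WT that those of cultures 1 and 3 carry. The 2 Dnmt1 KO libraries (A and B) come from 1 culture labelled Dnmt1 -/-, lacking the maintenance DNA methyltransferase. The 4 Dicer/Dnmt1 KO libraries come from 2 cultures, 1 and 2, labelled Dicer/Dnmt1 -/-, which also lack the enzyme that cuts miRNA precursors to their mature length.

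Every group is labelled as ESCs of an E14 background, whereas the study's methods describe floxed C57BL/6 ESCs in which Cre was induced by tamoxifen. The study also made a constitutive Dicer knockout in the Dnmt1-floxed line. It reports small RNA-seq of the conditional Dicer/Dnmt1 line, but the labels do not say which line these libraries come from. A difference of line or of tamoxifen exposure therefore cannot be told apart from genotype, and no time after deletion is given in the labels. The A and B libraries of a culture may be technical, so the p-values below measure the spread between these libraries, and the Dnmt1 KO group rests on 1 culture.

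The cluster is a duplicate of the better known Mir17-92 cluster on chromosome 14, and a smaller relative, the Mir106b-25 cluster, lies on chromosome 5. A primary transcript carries all hairpins of a cluster, Drosha cuts the hairpins out, and Dicer cuts each to a mature miRNA that is loaded into an ARGONAUTE protein. The seed, bases 2 to 8 of the mature miRNA, does most of the pairing with target mRNAs, so genes that share a seed share many predicted targets. Mir17-92 is known for promoting proliferation and cell survival, and mice need it for normal development.

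The mature sequences are printed because most members are separated from a Mir17-92 gene by very few bases, and some by none. All 16 genes of the 3 clusters and Mir92b matched RefSeq's miRNA table (GRCm38.p6), and all 16 hairpins are identical in NCBIM37, the build of the deposited values. Capitals mark the seed, and each member is followed by its closest Mir17-92 gene.
Mir106a, miR-106a-5p: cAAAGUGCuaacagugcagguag
Mir17, miR-17-5p: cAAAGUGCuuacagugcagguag
Mir20b, miR-20b-5p: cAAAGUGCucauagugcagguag
Mir20a, miR-20a-5p: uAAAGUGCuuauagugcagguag
Mir18b, miR-18b-5p: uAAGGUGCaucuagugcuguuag
Mir18, miR-18a-5p: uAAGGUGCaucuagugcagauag
Mir19b-2 and Mir19b-1, miR-19b-3p: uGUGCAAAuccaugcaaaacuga
Mir92-2 and Mir92-1, miR-92a-3p: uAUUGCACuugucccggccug
Mir363, miR-363-3p: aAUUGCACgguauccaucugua
Counting from the 5′ end and writing the Mir17-92 base before the cluster base, Mir106a differs from Mir17 by U10A. Mir20b differs from Mir20a by U1C and U10C, and Mir18b from Mir18 by A18U and A20U. None of these changes lies in the seed.

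Mir19b-2 and Mir92-2 give the same mature sequence as their chromosome 14 counterparts, so a read is assigned to a locus only through bases outside it. For miR-92a-3p the loci are shown on their own strand in NCBIM37, with the mature sequence in capitals and 4 genomic bases on either side. Mir92-2 lies at chrX:50095027-50095055 on the minus strand and Mir92-1 at chr14:115443694-115443722 on the plus strand.
Mir92-2 locus: aaagTATTGCACTTGTCCCGGCCTGagga
Mir92-1 locus: atggTATTGCACTTGTCCCGGCCTGttga
The loci share a run of 22 bases, so reads of 23 and 24 nucleotides always differ between them, whereas a read of 20 to 22 nucleotides within the run fits both. For miR-19b-3p the shared run is 25 bases, longer than any read kept. How reads that fit more than 1 place were assigned is not given in the sources used here, and its part in the split between Mir92-2 and Mir92-1 was not tested.

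The 6 hairpins span 875 bases, from 50094870 to 50095744 of the X chromosome (NCBIM37, minus strand), in the order Mir106a, Mir18b, Mir20b, Mir19b-2, Mir92-2 and Mir363 along the transcript. Kis2, a long noncoding RNA listed upstream on the same strand, overlaps the 5 bases at the 5′ end of the Mir106a hairpin and 1 base of miR-106a-5p. Its 94 reads never differed by more than 2 from those of Mir106a in a library and never exceeded them, so they were taken for the same reads and are no separate measure of the host transcript. Ccdc160, the only other feature of the table within 100000 bases, had 0 reads in every library.

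The libraries held 8710 to 245184 reads, with WT 2A (16142 reads) and Dicer/Dnmt1 KO 1B (8710 reads) under 20000. Levels are given as reads per 1000000 reads of the library (RPM), and 3 reads, the limit that a count of 0 allows, stood for 12.2 to 344 RPM. Intervals and limits cover counting error only. Dnmt1 had 62 reads in WT (81.3 RPM over the pooled libraries), 17 in Dnmt1 KO (97.0 RPM) and 14 in Dicer/Dnmt1 KO (56.6 RPM), so it was not lower in Dnmt1 KO. These fragments of 20 to 24 nucleotides are counted over the whole annotated gene and do not show whether the deleted part is gone, so the Dnmt1 deletion is not checked by these data. Dicer1 had 7, 1 and 1 reads. The loss of Dicer was read against the miRNA share of the table's reads. This was 39.3% ± 14.3 (SD, n = 6) in WT, with WT 2A apart at 65.8%. It was 52.4% ± 1.47 (n = 2) in Dnmt1 KO and 8.97% ± 2.62 (n = 4) in Dicer/Dnmt1 KO. The summed RPM of 12 ESC miRNAs ranged from 28683 to 93275 in WT and from 55926 to 99648 in Dnmt1 KO, and from 1221 to 3797 in Dicer/Dnmt1 KO. The summed RPM of 12 miRNAs of differentiated cells ranged from 6876 to 13930 in WT, from 37575 to 46428 in Dnmt1 KO and from 10318 to 34117 in Dicer/Dnmt1 KO. Most of these reads came from Mir21, Mir22 and Mir143, while Mir199a-1 and Mirlet7c-2 were at 0 in all 12 libraries. In such bulk samples, fewer cells of a type and less RNA per cell cannot be told apart.

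In WT ESCs almost all reads of the cluster were counted at Mir92-2. Reads within the run shared with Mir92-1 fit both loci, so some of these may come from Mir92-1, which was not tested. The 6 members summed to 39516 RPM ± 8801 (SD, n = 6; 26698 to 49798), or 9.79% ± 3.06 of all miRNA reads, and Mir92-2 held 28404 of their 29068 reads (97.7%). The mature products are 21 to 23 bases long, but levels of different members are compared here per 1000 bases of annotated hairpin. On that scale Mir92-2 stood at 425622 ± 96030 RPM per 1000 bases and Mir363, its seed relative at the end of the cluster, at 3586 ± 1457. Mir92-2 was the higher in 6 of 6 libraries with no overlap. Mir20b followed at 3479 ± 636, and it was above Mir363 in 3 of 6 libraries and below it in the other 3, so this pair had no order. Mir18b (1609 ± 723) was below Mir20b in 6 of 6 libraries, although their ranges overlapped. Mir106a (1520 ± 1590) was below Mir18b in 4 of 6. Mir19b-2 (56.6 ± 139) came last and had reads in 1 library, WT 1A. The table counts reads over the hairpin, so the 5′ and 3′ arms were not separated.

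**Figure D1:**
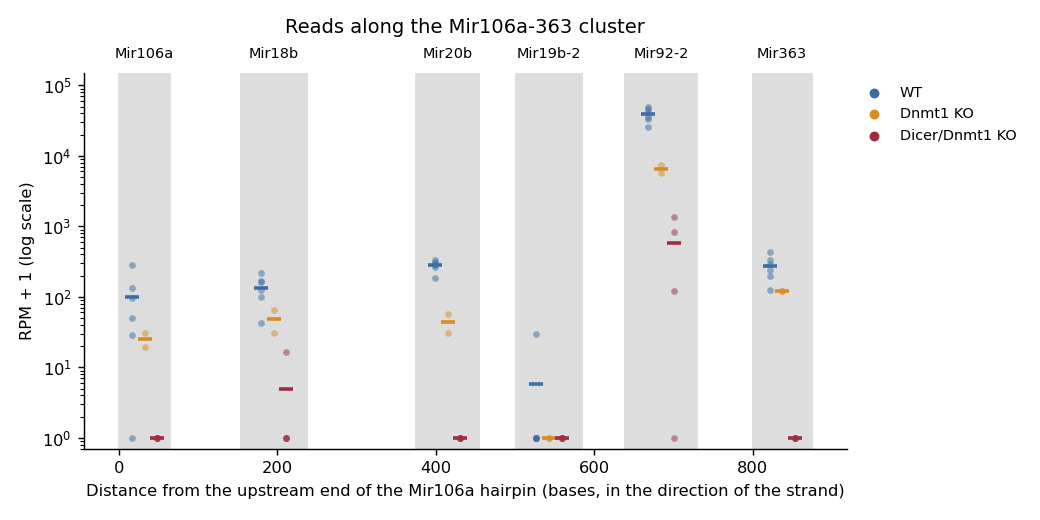
RPM + 1 on a log scale against the position of each hairpin (grey) in bases from the upstream end of Mir106a, for the 6 WT, 2 Dnmt1 KO and 4 Dicer/Dnmt1 KO libraries; dots are libraries, dashes are group means, and a library with 0 reads lies at 1. Mir92-2 stands at 38732 RPM on average in WT, and the other members lie between 4.76 and 278 RPM.

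The genes of the AUUGCAC seed were the most abundant group to which the cluster contributed. The 5 of them (Mir92-2, Mir363, Mir92-1, Mir25 and Mir92b) summed to 142327 ± 30127 RPM in WT. Reads counted at the 2 members made up 27.4% ± 1.82 of these, with the same limit on the split between Mir92-2 and Mir92-1. The 6 genes of the AAAGUGC seed (Mir106a, Mir20b, Mir17, Mir20a, Mir106b and Mir93) summed to 2562 ± 783 RPM, of which Mir106a and Mir20b made up 14.7% ± 2.52. The AAGGUGC seed of the pair Mir18b and Mir18 had 306 ± 128 RPM, with 112 of its 269 reads from Mir18b. The GUGCAAA seed of the Mir19 genes had 321 ± 185 RPM, and 7 of its 299 reads came from Mir19b-2.

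The comparison of Dnmt1 KO with WT asked which small RNAs differ when maintenance methylation is lost. Mir20b passed the test and was lower in Dnmt1 KO, though it entered the test through WT libraries alone. The values of Mir92-2 and Mir363 lay below those of every WT library without passing the test. The summed level of the cluster was 5999 and 7639 RPM in the 2 Dnmt1 KO libraries, below the lowest WT library, and the ratio of the group means was 5.80. Without Mir92-2 the sum was 207 and 260 RPM against 434 to 1198 RPM in WT, a ratio of 3.36. As a share of miRNA reads the cluster held 9.79% in WT and 1.07% ± 0.213 (n = 2) in Dnmt1 KO. A fit over all features was made with limma on log2(RPM + 10) after TMM scaling, a scale on which changes of low genes are understated. A sum over members was given no p.

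Mir20b, the relative of Mir20a with the AAAGUGC seed, was the member that passed the test. The filter on low values was passed in 6 WT libraries and 0 Dnmt1 KO libraries, so the call is a description of Mir20b. It had 186 RPM in the lowest, 289 RPM in the median and 333 RPM in the highest WT library, against 29.6 and 55.8 RPM in the Dnmt1 KO libraries. The groups did not overlap, and WT was 6.52 times as high on average. Its log2 fold change was -2.38 ± 0.48 (SE; limma, adjusted p = 0.00638). The call was lost without the library Dnmt1 KO A (adjusted p = 0.193) and with A and B summed (0.108), and the 2 libraries hold only 2 and 6 Mir20b reads.

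Mir92-2, which carries most of the cluster's reads, had 25797, 39152 and 48895 RPM in the lowest, median and highest WT libraries. The Dnmt1 KO libraries stood at 5792 and 7379 RPM, so the groups were separate and WT was 5.88 times as high. Its log2 fold change was -2.37 ± 1.20 and did not pass the test (limma, adjusted p = 0.321), since the spread is shared with Dicer/Dnmt1 KO, where Mir92-2 ranged from 0 to 1347 RPM. Mir92-2 was called in 4 of 26 alternatives. It was called when only WT and Dnmt1 KO entered the fit, an alternative chosen after seeing the data (limma, adjusted p = 0.0184). It was also called without the shallow library Dicer/Dnmt1 KO 1B (0.0475). It was not called with A and B summed (limma, adjusted p = 0.264), with an estimated correlation within a culture (0.590) or with voom (0.0614).

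Mir363 had 124, 265 and 435 RPM in the lowest, median and highest WT libraries, against 118 and 121 RPM in Dnmt1 KO. All Dnmt1 KO values lay below WT, but only by a few RPM for WT 2A, which has 2 Mir363 reads. Its log2 fold change was -0.86 ± 0.53 (limma, adjusted p = 0.435). For Mir18b the WT range was 41.6 to 214 RPM with a median of 141, and the Dnmt1 KO libraries had 29.6 and 65.1 RPM, which overlapped it. The fitted log2 fold change of Mir18b was -1.16 ± 0.74 (limma, adjusted p = 0.437). Mir106a ran from 0 in WT 2A to 285 RPM in WT 2B with a median of 72.6. It had 29.6 and 18.6 RPM in Dnmt1 KO, which lay within the WT range, and a log2 fold change of -0.77 ± 1.05 (limma, adjusted p = 0.760). Mir19b-2 failed the filter on low values and was not tested.

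Of the 6 members 5 were tested, and Mir20b was called lower, against 0.293% of the 683 tested features (2 features) called lower in this comparison. Mir20b, Mir92-2 and Mir363 had all Dnmt1 KO libraries below all WT libraries in RPM, which held for 5.86% of the tested features. Mir106a, Mir18b and Mir20b passed the filter through WT libraries alone, so these counts are a description of the members and not support for a direction. The median log2 fold change of the 5 was -1.16, against 0.13 over all tested features and 1.40 over the 133 tested miRNAs. Over the 5 scalings tried it ran from -1.26 to -0.81, with all 5 members negative in each, while that of all tested features ran from -0.07 to 0.51. In Dnmt1 KO 45 of the 683 tested features and 28 of the 133 tested miRNAs were called higher. Among them were all 4 of the 12 miRNAs of differentiated cells that were tested (median log2 fold change 3.12). Of 10 tested ESC miRNAs none was called (median -0.06). The part of these marker miRNAs in the members' values was not tested.

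**Figure D2:**
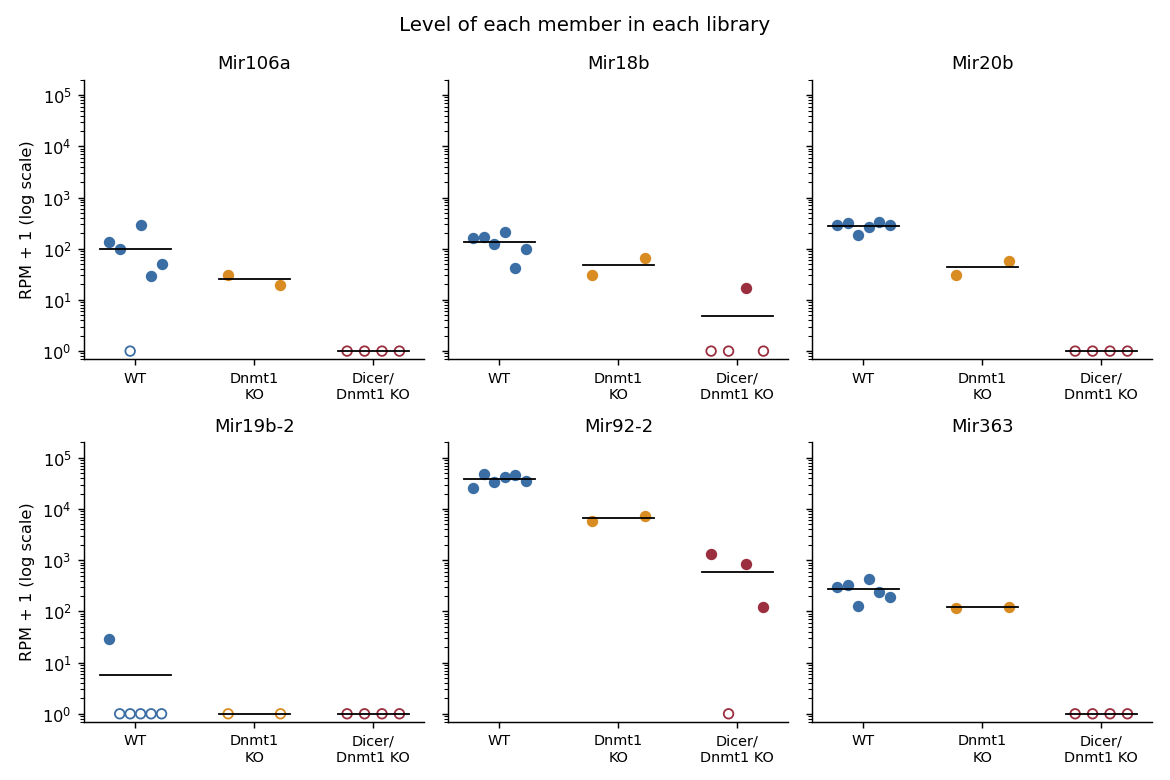
RPM + 1 on a log scale for each member in every library of the 3 groups; open circles are libraries with 0 reads and lines are group means. Mir20b, Mir92-2 and Mir363 are lower in both Dnmt1 KO libraries than in any WT library, and Mir106a, Mir20b, Mir19b-2 and Mir363 have no read in Dicer/Dnmt1 KO.

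No gene of the related clusters was called in Dnmt1 KO. Of the Mir17-92 genes 5 of 6 were tested and none was called (limma; the unadjusted p was above 0.05 for all 5). Their log2 fold changes ran from -0.75 for Mir19a to 0.75 for Mir18, with a median of -0.05 that changed sign with the scaling (-0.21 to 0.37). Mir92-1, which gives the same mature miRNA as Mir92-2, had 92270 ± 22545 RPM in WT and 77516 ± 122 RPM in Dnmt1 KO, with overlapping ranges (log2 fold change -0.05 ± 0.62; limma, adjusted p = 0.980). The 3 genes of the Mir106b-25 cluster had positive values with a median of 0.96, and none was called. Mir25 was at 6970 ± 1869 RPM in WT and at 13934 and 15594 RPM in Dnmt1 KO, without overlap (limma, adjusted p = 0.321). Summing Mir92-1 with Mir92-2 to a value for miR-92a-3p as a whole gave a log2 fold change of -0.44 ± 0.69 (limma, adjusted p = 0.789).

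No X-linked miRNA outside the cluster was called lower in Dnmt1 KO, where only 2 of the 683 tested features were. Of 102 X-linked miRNA genes outside it, 12 were tested and 0 had a negative log2 fold change in Dnmt1 KO. Their median was 1.71, against 1.40 over the 133 tested miRNAs. Of these 12, 4 were called higher, beside 45 of the 683 tested features and 28 of the 133 tested miRNAs. Among the 4, Mir881, Mir871 and Mir470 lie close together, between 64055119 and 64067200 of the X chromosome. Mir351, the nearest tested miRNA at 310688 bases, had 1.68 ± 0.73 (limma, adjusted p = 0.248), and Mir881, the next nearest at 13959375 bases, had 4.75 ± 0.57 (limma, adjusted p = 8.83e-05). Of the X-linked miRNAs with most reads, Mir532 rose by 1.74 ± 0.47 (limma, adjusted p = 0.0441) and Mir2137 had 1.40 ± 1.28 (limma, adjusted p = 0.610). Among the ESC miRNAs, the 3 tested genes of the Mir302 to Mir367 cluster also had negative values (median -1.78), and none was called.

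**Figure D3:**
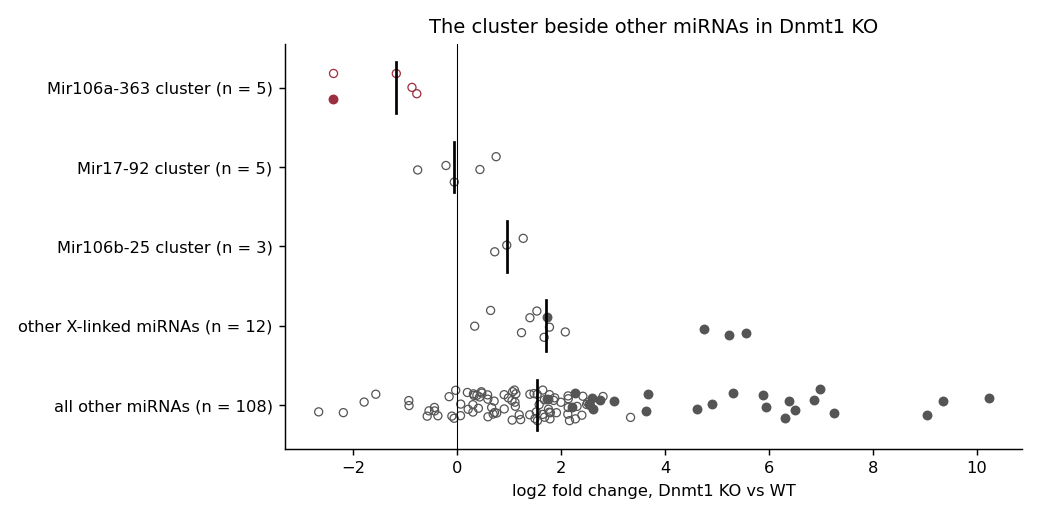
Log2 fold change in Dnmt1 KO against WT for the tested miRNAs of each group; filled circles passed the limma test, open circles did not, and vertical lines are medians. The 5 members lie at -0.77 and below, and all 12 other X-linked miRNAs lie above 0.

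The share of the X-linked gene in the reads of a pair with its closest Mir17-92 gene needs no scaling between libraries, and it asks whether the cluster moved apart from its relative. The X-linked share was lower in Dnmt1 KO for Mir92-2 and Mir20b, with no overlap between the groups. Mir92-2 gave 28.1%, 30.3%, 34.8%, 29.9%, 29.2% and 26.2% of the reads of the pair with Mir92-1 in WT 1A, 1B, 2A, 2B, 3A and 3B. In Dnmt1 KO A it gave 392 of 5644 reads, 6.95% (95% Wilson interval 6.31 to 7.64). In Dnmt1 KO B it gave 794 of 9126 reads, 8.70% (8.14 to 9.30). The mean share was 29.7% ± 2.87 in WT and 7.82% ± 1.24 in Dnmt1 KO, a difference of -21.9 percentage points. The exact two-sided permutation test gave p = 0.0714, the smallest that 2 against 6 libraries allow (Benjamini-Hochberg adjusted p = 0.129 over the 9 tests of pairs), so this design could not reach 0.05.

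The share of Mir20b in the pair with Mir20a was 45.5% ± 5.88 in WT (40.5% to 55.8%). It gave 2 of 20 reads (10%; Wilson 2.79 to 30.1) in Dnmt1 KO A and 6 of 32 reads (18.8%; 8.89 to 35.3) in Dnmt1 KO B. The means differed by -31.1 points without overlap, and the exact permutation test again stopped at its lowest p of 0.0714 (adjusted p = 0.129). For Mir106a with Mir17 the share was 18.1% ± 13.1 in WT and 5.07% ± 0.272 in Dnmt1 KO. WT ran from 0 of 6 reads to 32%, so the groups overlapped (exact permutation p = 0.286, adjusted p = 0.367). For Mir18b with Mir18 it was 37.5% ± 11.7 in the 5 WT libraries with at least 5 reads and 26.4% ± 24.5 in Dnmt1 KO (exact permutation p = 0.476, adjusted p = 0.533). Mir363 had no twin on chromosome 14, and set against Mir92-1 it held 0.192% to 0.443% of the reads in WT and 0.152% and 0.156% in Dnmt1 KO (p = 0.0714 by exact permutation, its lowest value here; adjusted p = 0.129). Mir19b-2 and Mir19b-1 together had 13 reads in WT and 0 in Dnmt1 KO, which gave no test.

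**Figure D4:**
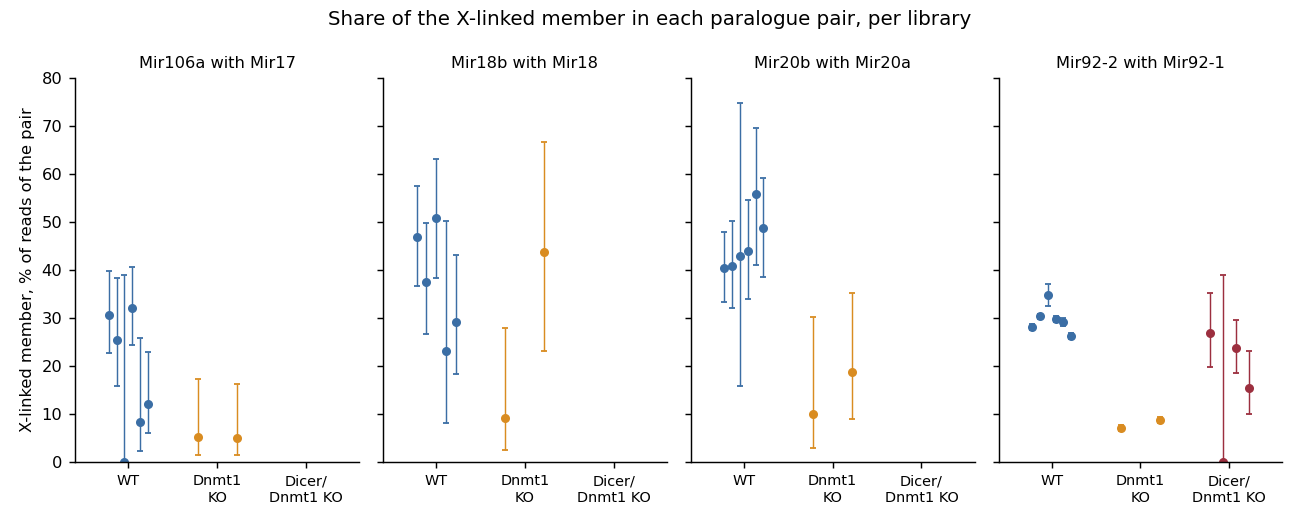
Percentage of the reads of each pair that came from the X-linked member, per library, with 95% Wilson intervals; libraries with under 5 reads of the pair are left out. For Mir92-2 with Mir92-1 the WT libraries lie between 26.2% and 34.8% and the Dnmt1 KO libraries at 6.95% and 8.70%; for Mir20b with Mir20a the WT libraries lie at 40.5% and above.

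Counted by seed, the part from the cluster lay below the WT range in Dnmt1 KO for both large groups. The totals lay within the WT range, for AUUGCAC only at its lower end. The AAAGUGC genes summed to 3065 ± 116 RPM in Dnmt1 KO, within the WT range of 1735 to 4008 RPM, while the part from Mir106a and Mir20b was 1.88% and 2.49% against 10.7% to 17.6% in WT. The AUUGCAC genes summed to 100269 and 105867 RPM in Dnmt1 KO, against a WT range of 99758 to 170997 RPM. Only WT 1A, at 99758 RPM, lay below these totals, and the other WT libraries had 111201 RPM or more. The part from Mir92-2 and Mir363 was 5.89% and 7.08% against 24.8% to 29.9% in WT. No p was computed for these sums.

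The comparison of Dicer/Dnmt1 KO with WT asked which small RNAs differ when both Dicer and Dnmt1 are lost. Both genes differ between these groups, so a change cannot be assigned to either gene alone. All 5 tested members were lower in Dicer/Dnmt1 KO, and the cluster had 105 reads in 247330 over the 4 libraries, of which 104 were Mir92-2. The summed level was 1347, 0, 851 and 119 RPM in the libraries 1A, 1B, 2A and 2B (580 ± 635), all below the lowest WT library. Mir106a, Mir20b, Mir19b-2 and Mir363 had 0 reads in all 4, which allows up to 12.1 RPM over the group, and Mir18b had 1 read, in 2A. Against the pooled WT libraries Mir20b was at least 23.9-fold lower, Mir363 at least 24.6-fold lower and Mir106a at least 10.4-fold lower. Mir18b was 36.3-fold lower with a counting interval of 6.39 to 1447. For Mir19b-2 both groups were under or near the limit of detection, and no fold is given.

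Mir92-2 fell from 28404 reads in the 6 WT libraries to 33, 0, 53 and 18 reads in Dicer/Dnmt1 KO, that is 1347, 0, 836 and 119 RPM. The pooled level was 88.6-fold lower (counting interval 73.1 to 108), and the fitted log2 fold change was -8.20 ± 0.95 (limma, adjusted p = 1.41e-05). The size of this value rests in part on the shallow library 1B, where 0 reads allow up to 344 RPM: it was -6.89 without 1B and -6.47 with A and B summed, and Mir92-2 was called in both. Mir20b at -5.08 ± 0.38 (limma, adjusted p = 4.10e-07), Mir363 at -4.95 ± 0.42 (1.04e-06) and Mir18b at -3.70 ± 0.58 (0.000217) were also called lower. Mir106a was called at -2.83 ± 0.83 (limma, adjusted p = 0.0217), a call lost with an estimated correlation within a culture (adjusted p = 0.0918), with a pseudocount of 50 RPM (0.0523) and without the library Dicer/Dnmt1 KO 2A (0.0501) or 2B (0.0516). For members at 0 reads the fitted value depends on the pseudocount and is no bound. The 5 tested members called lower stand beside 19% of all tested features and 81 of the 133 tested miRNAs. As 3 of the 5 (Mir106a, Mir18b and Mir20b) passed the filter only through WT, the group where they are high, this count is a description. Their median was -4.95, or -4.58 with the 3 members at 0 set to their bounds, against -2.75 over the tested miRNAs. The Mir17-92 genes (5 of 5 tested called lower, median -4.80) and the Mir106b-25 genes (3 of 3, median -4.76) had medians close to that of the cluster. With library reads in place of TMM scaling the median of all tested features moved from -0.09 to 0.61 and the calls over all features from 35 higher and 130 lower to 84 and 116, and all 5 members were still called lower.

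What remained of Mir92-2 in Dicer/Dnmt1 KO kept a measurable share of its pair with Mir92-1. The share was 33 of 123 reads (26.8%), 0 of 6 reads, 53 of 224 reads (23.7%) and 18 of 117 reads (15.4%) in 1A, 1B, 2A and 2B, with a mean of 16.5% ± 11.99 (SD, n = 4). The libraries ran from below the WT range of 26.2% to 34.8% to within it. The difference from WT was -13.3 percentage points (exact permutation p = 0.0190, adjusted p = 0.0857), and without 1B, which has 6 reads of the pair, it was -7.78. Against Dnmt1 KO the difference was 8.65 percentage points (exact permutation p = 0.533, adjusted p = 0.533), and without 1B it was 14.1. Mir363 had 0 reads beside 366 reads of Mir92-1, which lay -0.295 points from WT (p = 0.00952 by exact permutation, its lowest value for 4 against 6 libraries; adjusted p = 0.0857).

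**Figure D5:**
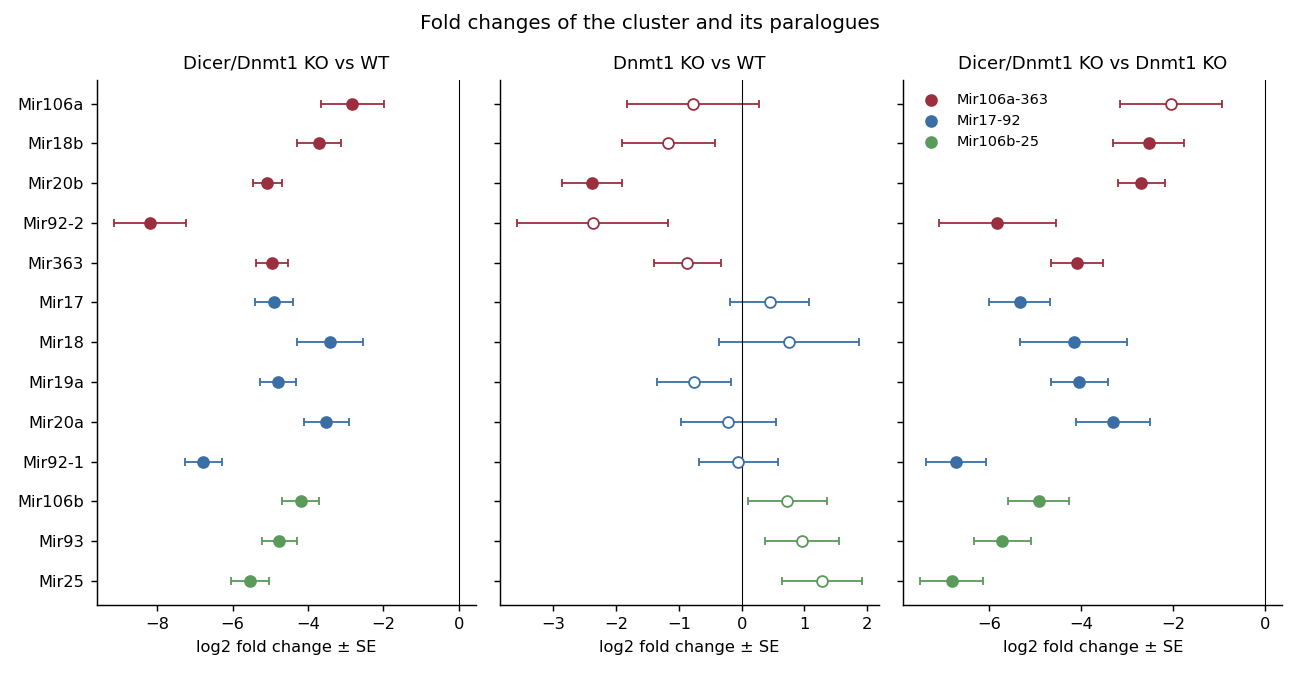
Log2 fold change ± SE from limma for the tested genes of the 3 clusters in the 3 comparisons; filled circles passed the test, and the horizontal axes differ between panels. Against WT all 13 genes are lower in Dicer/Dnmt1 KO, while in Dnmt1 KO Mir20b alone passed.

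The comparison of Dicer/Dnmt1 KO with Dnmt1 KO set cells labelled as lacking both genes against cells labelled as lacking Dnmt1 only. Both comparisons of the double knockout use the same 4 libraries, so they are not independent. The pooled level of Mir92-2 was 16.1-fold lower (counting interval 13.2 to 19.9), and the fitted log2 fold change, which weighs each library equally, was -5.83 (limma, adjusted p = 0.00302). It was -4.51 without the library 1B and -4.25 with A and B summed, and Mir92-2 was called in both. Mir363 was at least 9.88-fold lower (log2 fold change -4.09; limma, adjusted p = 9.23e-05) and Mir20b at least 3.76-fold lower (-2.69; limma, adjusted p = 0.000951). Mir18b had 9 reads against 1 and a log2 fold change of -2.54 (limma, adjusted p = 0.0298), a call lost in 11 of 27 alternatives. It was lost with an estimated correlation within a culture (adjusted p = 0.0668), with A and B summed (0.0702) and with library reads only (0.0539). The call was also lost with voom (0.0877), a pseudocount of 50 RPM (0.183) and no filter (0.400). Leaving out any of 5 libraries lost it too (up to 0.277, without Dnmt1 KO B). Mir106a had 4 reads against 0 and was not called (-2.06; limma, adjusted p = 0.277). Of the 5 tested members 4 were called lower, or 3 with either treatment of the shared culture, beside 21.7% of all tested features and 99 of the 133 tested miRNAs. The same 3 members passed the filter through WT alone. The median of the 5 was -2.69, or -2.54 with the bounds, against -4.17 for the tested Mir17-92 genes. Apart from Mir92-2 the tested members had 4 to 21 reads in Dnmt1 KO, against 24 to 13584 for the tested Mir17-92 genes. Depth and the pseudocount limit the fold that such low members can show, so these medians do not compare the size of the fall.

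Features were ranked by likeness to the summed cluster after leaving out the members, genes that share a seed with them and features overlapping these. Of the rest, those most like the summed cluster over the 12 libraries were named by Spearman's correlation of TMM-scaled RPM, as a description. They were Pde4d (rho 0.937), which encodes a cyclic AMP phosphodiesterase, Gm16953 (0.921), Mir582 (0.914), the mitochondrial tRNA gene mt-Tf (0.908) and Odz4 (0.908). Mir582 lies within the annotated span of Pde4d on chromosome 13, so these are not separate neighbours in the order. All points share the contrast between WT and Dicer/Dnmt1 KO and the depth of the libraries, and no p is given.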

How the data were processed

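The deposited values are log2 RPM. According to the labels and methods, adapters were trimmed with Trim Galore 0.3.5, reads of 20 to 24 nucleotides were mapped to NCBIM37 with Bowtie2 2.2.6 and overlaps with annotated features were counted in SeqMonk. A feature with 0 reads is written as 0.9 read. Whole reads were recovered for 100% of values in all 12 libraries (within 0.02 read). A further 89 columns belong to no sample here and were left out. Features over 111 RPM in at least 2 libraries and with at least 15 reads were tested (683), with TMM factors of 0.419 to 1.96, a pseudocount of 10 RPM and limma 3.58.1 (R 4.3.3) in 1 model over the 3 groups, at a Benjamini-Hochberg adjusted p of 0.05. The fit was tested on simulated data with independent libraries, which does not check its error rates for libraries that share a culture. Pair shares were compared with exact two-sided permutation tests (SciPy 1.17.1). A and B libraries differed beyond sampling noise and were kept apart. The 6 members, 10 paralogues, X-linked miRNAs, features within 100000 bases and the 5 most alike features were named. The members, lists and tests were chosen with earlier results of these data known. Alternatives changed the scaling, pseudocount, filter, libraries, weights and pairing. Those that used only the groups compared, or left out libraries with fewer than 20000 reads, were chosen after seeing the data.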

Additional observations from a re-analysis of the deposited data

Results flagged for a closer look

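In 2 of the 16 groups of 4 to 6 values examined, 1 library stood far from the rest. Chance flags about 1 in 20 groups of normally distributed values, a rate that does not hold for these counts. Both flagged groups had reads in 1 library only, and such a group is flagged however few the reads. Mir19b-2 was at 28.6 RPM (7 reads) in WT 1A and at 0 in the 5 other WT libraries. Mir18b was at 15.8 RPM (1 read) in Dicer/Dnmt1 KO 2A and at 0 in the 3 other libraries of the group, a step of the smallest size that the depth allows.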

How the results depend on the processing

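No member changed direction in any comparison under any alternative. The members kept their side of the threshold in 135 of 139 values for Dicer/Dnmt1 KO against WT, 125 of 134 for Dnmt1 KO against WT and 120 of 134 for Dicer/Dnmt1 KO against Dnmt1 KO. For Dnmt1 KO against WT, Mir20b was not called with a pseudocount of 1 RPM (limma, adjusted p = 0.0748), with snoRNA and snRNA factors (0.0528) or with no filter (0.448), and Mir92-2 was called with no filter (0.000119). The number of features called there was 47, but 31 with a pseudocount of 1 RPM, 80 with voom, 24 with A and B summed, 30 with a correlation within a culture, 168 without the WT 2 culture, 121 without libraries under 20000 reads and 21 to 97 when each library was left out. The lowest counts came without Dnmt1 KO A (22) or B (21) and the highest without WT 2A (97). The cause was not tested. For Dicer/Dnmt1 KO against WT the calls were 147 to 187, and against Dnmt1 KO 124 to 179, over the libraries left out.

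The replicate numbers did not pair the libraries: deviations of same-numbered WT and Dicer/Dnmt1 KO libraries correlated at -0.28 to 0.11, and no library was closest to its own number. With the replicate block 124, 39 and 154 features were called for Dicer/Dnmt1 KO against WT, Dnmt1 KO against WT and Dicer/Dnmt1 KO against Dnmt1 KO, beside 165, 47 and 156 without it, and no member's call changed.

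The share of Mir92-2 in its pair differed between Dicer/Dnmt1 KO and WT by -16.7 to -7.78 percentage points when each library was left out, and the share of Mir363 by -0.316 to -0.266. Leaving out a Dnmt1 KO library brought both under the threshold (adjusted p = 0.0190) because fewer tests were then adjusted for. For Mir363 the depth still leaves a share of 0 and a share as in WT undistinguished. As a log2 ratio of reads plus 0.5, Mir363 beside Mir92-1 was reversed, at 1.61 against WT and 2.46 against Dnmt1 KO, since the added reads weigh most where Mir92-1 is low. The summed level of the members in Dnmt1 KO was 9097 RPM with TMM scaling, 6819 with library reads only and 12028 with snoRNA and snRNA factors; WT stayed within 39516 to 52969. Depth limits Mir106a, Mir18b and Mir20b in Dnmt1 KO, where they rest on 4, 9 and 8 reads.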
